A study of Caenorhabditis elegans with 7 samples.

Results

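The neighbouring Caenorhabditis elegans genes kin-15 and kin-16 encode receptor tyrosine kinases and lie side by side on chromosome II. They were picked by name, 2 of the 27909 genes with a counted 3′ UTR, with their reads and their reads carrying T-to-C mismatches (T>C) in these libraries already known. Their difference between the strains is therefore described and not tested. The libraries come from whole L4 larvae in a SLAM-ITseq experiment, in which 4-thiouracil enters the new RNA of cells that express uracil phosphoribosyltransferase and is read as T>C after alkylation. Strain BN1190 carries FLP recombinase driven by the dpy-7 promoter in the hypodermis (3 libraries, here the hypodermal FLP libraries), and strain BN1158 carries no FLP (4 libraries, the controls). Animals of both strains grew for 28 h at 20 °C and were then on 4-thiouracil for 17 h in all, on 3 plates per sample. The labels do not say whether replicates were started on separate days, so a p-value here weighs only the scatter among the libraries at hand, part of which may be technical.

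Receptor tyrosine kinases sit in the cell membrane, bind a signal outside with one part of the protein and phosphorylate tyrosines inside with another. Many of them pass the signal to the Ras protein and a chain of kinases below it. In C. elegans kin-15 and kin-16 were described as kinases of hyp7, the large syncytium that covers most of the body and that takes up further epidermal cells by fusion during larval life. Whole larvae cannot show in which tissue the reads arose, so the hypodermal part of the name was not tested by read counts. Lower reads from fewer cells of a type and from less RNA per cell cannot be told apart in such samples either.

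Some libraries stand apart. Gene reads ranged from 18985660 to 61942117 in the hypodermal FLP libraries and from 5041278 to 51990916 in the controls, with control replicate 2 the shallowest. Control replicate 2 also held the largest share of reads with T>C, 4.58%, against 3.35% to 3.76% in the hypodermal FLP libraries and 2.63% to 2.79% in the other controls. Control replicate 3 had the fewest genes with a read, 11081, against 12981 to 14230 in the other libraries. Hypodermal FLP replicate 1 and control replicate 1 have file headers without a flow cell name, unlike the other 5 libraries.

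Both genes are read from the minus strand, kin-15 from WBcel235 chrII:9431383-9433709 (WBGene00002199) and kin-16 from chrII:9434021-9436109 (WBGene00002200). A gap of 311 bases separates the end of kin-16 from the start of kin-15, so kin-16 is the upstream gene. The annotation gives kin-16 9 exons in 1 transcript, and kin-15 9 exons in one transcript and 8 in another. The kin-15 3′ UTR, chrII:9431383-9431440, has 58 bases, of which 34 are T (58.6%). The longer kin-16 3′ UTR, chrII:9434021-9434153, has 133 bases with 47 T (35.3%). Neither 3′ UTR overlaps that of another gene on the same strand.

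kin-15 had a lower level in every hypodermal FLP library than in any control. It had 41, 14 and 18 reads in hypodermal FLP replicates 1 to 3, against 377, 31, 115 and 66 reads in control replicates 1 to 4. Scaled to a library of 1000000 reads (CPM), this was 0.604, 0.705 and 0.942 in hypodermal FLP replicates 1 to 3, against 6.57, 7.23, 13.9 and 3.22 in control replicates 1 to 4. The groups did not overlap, and the highest hypodermal FLP library lay below the lowest control, replicate 4. Counting error alone gave a 95% Poisson interval of 0.559 to 1.49 CPM for hypodermal FLP replicate 3 and of 2.49 to 4.10 for control replicate 4. The means were 0.750 ± 0.174 CPM in hypodermal FLP libraries (SD, n = 3) and 7.73 ± 4.48 in controls (SD, n = 4). The log2 fold change from edgeR's fit was −3.36 (SE 0.74), a 10.3-fold lower level with FLP. Across the series, every hypodermal FLP library lay below every control in 280 of 12465 tested genes (2.25%), and 12 tested genes had a lower log2 fold change than kin-15.

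kin-16 was also lower on average with FLP, but its libraries overlapped. It had 25, 0 and 70 reads in hypodermal FLP replicates 1 to 3, against 145, 29, 97 and 38 reads in control replicates 1 to 4. In CPM this was 0.368, 0 and 3.66 in hypodermal FLP replicates 1 to 3, against 2.53, 6.76, 11.7 and 1.85 in control replicates 1 to 4. Hypodermal FLP replicate 3 exceeded control replicates 1 and 4. The 0 of hypodermal FLP replicate 2 allows a level of up to 0.151 CPM at 3 counts, below every other library. Means were 1.34 ± 2.02 CPM in hypodermal FLP libraries (SD, n = 3) and 5.72 ± 4.56 in controls (SD, n = 4). The log2 fold change was −2.09 (SE 1.30), and it depended on single libraries. It was −4.78 without hypodermal FLP replicate 3, −1.51 without hypodermal FLP replicate 2, −1.47 without control replicate 3 and −0.71 with control replicates 2 and 3 both left out. For kin-15 the value with those controls both left out was −2.71.

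**Figure D1:**
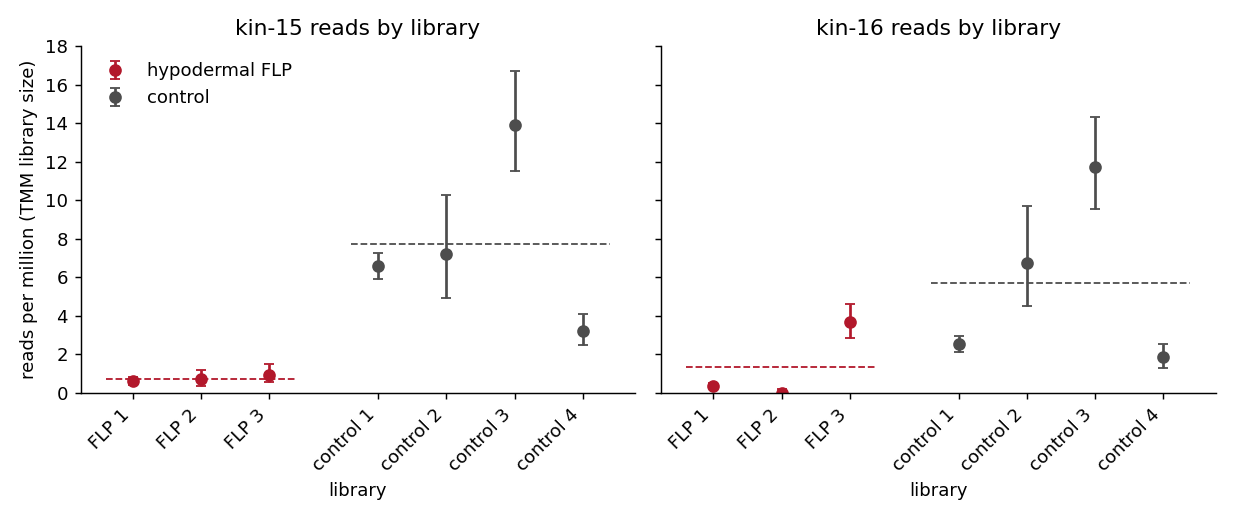
CPM of kin-15 (left) and kin-16 (right) in each library, with 95% Poisson intervals for counting error and dashed lines at group means. All 3 hypodermal FLP libraries lie below the 4 controls for kin-15, while hypodermal FLP replicate 3, at 3.66, lies above control replicates 1 and 4 for kin-16.

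The labels name no molecular identifiers, so intervals cover counting error only, and copies of the same molecule cannot be set aside. Over all genes, edgeR's quasi-likelihood test with Benjamini-Hochberg adjustment called 0 genes higher (0%) and 2 lower (0.016%) in hypodermal FLP libraries. At an unadjusted p under 0.05 it counted 91 higher (0.73%) and 193 lower (1.55%). DESeq2 called 9 higher (0.0726%) and 15 lower (0.121%). Neither member was among edgeR's calls, and kin-15 but not kin-16 was among DESeq2's. As the pair was chosen with these values known, these memberships carry no weight as evidence. Among the 5 libraries with a flow cell name the log2 fold changes were −3.30 for kin-15 and −1.89 for kin-16. Between hypodermal FLP replicate 1 and control replicate 1, the only other libraries, kin-15 was 10.9-fold and kin-16 6.87-fold lower with FLP.

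The 2 genes varied together between libraries. Among controls both were highest in replicate 3, then in replicate 2, replicate 1 and replicate 4. Among hypodermal FLP libraries both were highest in replicate 3. Pearson's correlation of log2(CPM + 0.5) over the 7 libraries was 0.82 and Spearman's 0.86, given as a description, since both genes come from the same libraries. Their ratio moved nonetheless. There were 1.64 and 0.257 kin-15 reads per kin-16 read in hypodermal FLP replicates 1 and 3, against 2.60, 1.07, 1.19 and 1.74 in control replicates 1 to 4. Hypodermal FLP replicate 3 was thus the only library with fewer kin-15 than kin-16 reads. This compares libraries and not the levels of the 2 genes. Levels correlated with log2 library size at −0.51 for kin-15 and −0.62 for kin-16, and the part of depth was not tested further.

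The reads of kin-16 also fell on different stretches of its 3′ UTR in different libraries. The files hold a second, shorter kin-16 entry, chrII:9434088-9434153, of the 66 bases next to the stop codon with 22 T, leaving 67 distal bases with 25 T. Of the T positions that kin-16 reads covered, 3.76% and 46.6% lay in the part next to the stop codon in hypodermal FLP replicates 1 and 3. In control replicates 1 to 4 the share was 100%, 69.4%, 100% and 50.3%. The controls therefore ranged from reads lying wholly near the stop codon to about an even split, and hypodermal FLP replicate 1 had nearly all of its coverage in the distal part. In that library 24 of 25 reads touched the part next to the stop codon, yet these covered 24 T positions there in all. From how many molecules these reads came was not tested. The 41 kin-15 reads of hypodermal FLP replicate 1 covered 34 T positions per read, all the T of that 3′ UTR. The other hypodermal FLP libraries had 22.4 and 15.1 covered T positions per kin-15 read, and the controls 21.7, 23.1, 33.6 and 26.2.

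**Figure D2:**
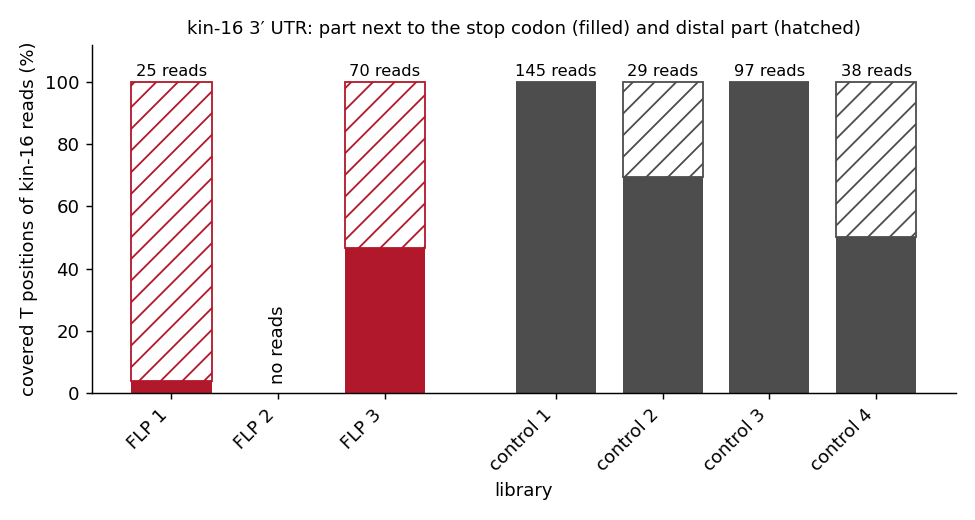
Share of covered T positions of kin-16 reads in the 3′ UTR part next to the stop codon (filled) and in the distal part (hatched), by library, with the number of reads above each bar. The filled share is 3.76% in hypodermal FLP replicate 1 and 100% in control replicates 1 and 3.

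Reads with T>C, the label of this method, were almost absent from both genes. kin-15 had 1 such read of 73 in hypodermal FLP libraries (1.37%, 95% Wilson interval 0.242 to 7.36) and 2 of 589 in controls (0.340%, 0.0932 to 1.23). The single labelled read of the first group lay in replicate 1 (1 of 41 reads, 2.44%), and both labelled control reads in control replicate 1 (2 of 377, 0.531%). kin-16 had 0 of 95 reads in hypodermal FLP libraries, which allows up to 3.16% at 3 counts and has a Wilson upper bound of 3.89%. In controls it had 0 of 309, which allows up to 0.971% at 3 counts and has a Wilson upper bound of 1.23%. At the T>C share of all genes in each library, the kin-15 reads would hold 2.55 labelled reads in hypodermal FLP libraries and 16.3 in controls. The kin-16 reads would hold 3.47 in hypodermal FLP libraries and 8.86 in controls. In control replicate 1 the upper bounds of the Wilson intervals, 1.91% for kin-15 and 2.58% for kin-16, lay below the 2.64% of all genes. In every hypodermal FLP library with reads of the gene, the share of all genes lay inside the interval. A difference in labelling between the strains was not detectable at this depth for either gene.

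**Figure D3:**
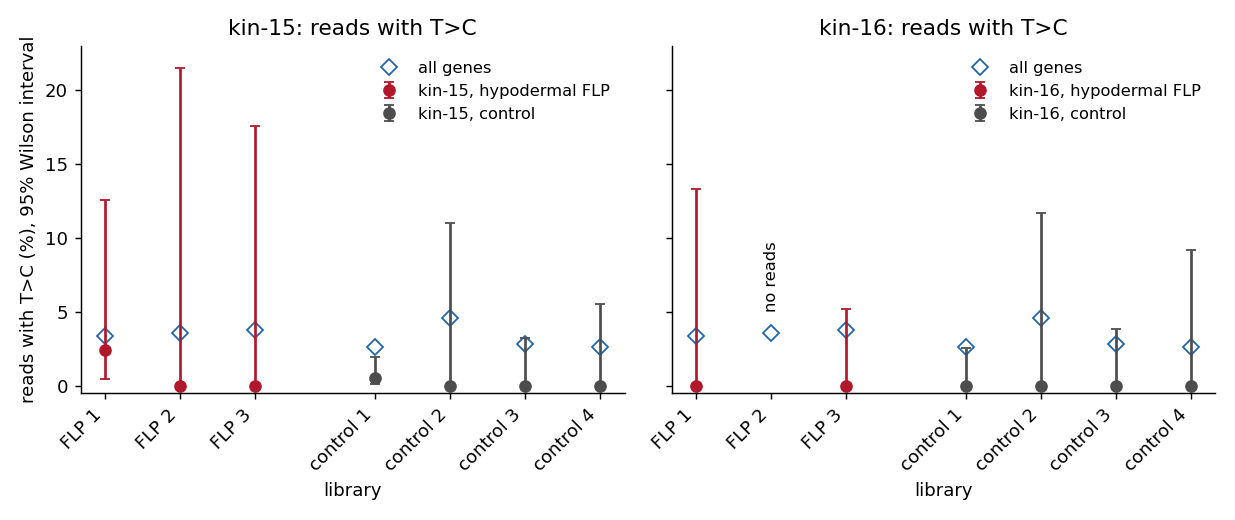
Percentage of reads with T>C for kin-15 (left) and kin-16 (right) by library, with 95% Wilson intervals, beside the share over all genes (open diamonds). The intervals of the hypodermal FLP libraries span the share of all genes, while those of control replicate 1 end below it.

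With 3 and 0 labelled reads in all, kin-15 and kin-16 stayed under the minimum of 10 that the labelling test required, and so neither entered it. Over the 9822 genes that did, edgeR's quasi-likelihood test called 0 higher (0%) and 0 lower (0%). At an unadjusted p under 0.05 there were 249 higher (2.54%) and 42 lower (0.428%). Per T position, which allows for the T-rich kin-15 3′ UTR, kin-15 had 0.0505% of covered T read as C in hypodermal FLP libraries and 0.0138% in controls. The median gene had 0.0834% in hypodermal FLP libraries and 0.0474% in controls. On 1 and 2 converted T positions, kin-15 ranked with the lowest 33.7% of genes in hypodermal FLP libraries and the lowest 26.2% in controls. The Poisson interval of its rate was 0.00128% to 0.281% in hypodermal FLP libraries and 0.00167% to 0.0498% in controls. Both intervals held the rate of the median gene, so these ranks do not set kin-15 apart from it. At 0 converted T positions kin-16 was level with 14.2% of genes in hypodermal FLP libraries and 17.8% in controls. Its upper Poisson bounds, 0.180% in hypodermal FLP libraries and 0.0842% in controls, also lay above the rate of the median gene. Pooled over all genes, which weighs genes by coverage, the rate was 0.135% to 0.169% in hypodermal FLP libraries and 0.106% to 0.231% in controls. In controls the upper bounds of kin-15 and kin-16 lay below each of these pooled rates. In hypodermal FLP libraries they lay above each. Within libraries, the kin-15 rate exceeded that of kin-16 by 0.0160 ± 0.0290 percentage points (SD, n = 6, since hypodermal FLP replicate 2 had no kin-16 read). It was above 0 in 2 of 6 libraries and 0 in the other 4, too few non-zero values for a test. The authors' deposited table compares the conversion rate in BN1190 with that in BN1158. Its 198 genes have authors' adjusted p-values of up to 0.1, and neither member is among them. By its name that table has a minimum of T>C conversions, so absence from it is not read as a result.

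The other receptor tyrosine kinases that were tested had log2 fold changes nearer to 0 than the pair. As the pair was chosen with its values known, this is a description. Of 17 listed, 11 were tested for reads, and edgeR called 0 higher and 0 lower, with 0 at an unadjusted p under 0.05 and 0 by DESeq2. Their median log2 fold change was −0.15, from −0.46 in egl-15, the fibroblast growth factor receptor, to 0.50 in let-23, the epidermal growth factor receptor. The median of all tested genes was −0.01. The most-read member was svh-2, a receptor related to Met that acts in axon regrowth. It had 59.5, 57.6 and 62.6 CPM in hypodermal FLP replicates 1 to 3, against 72.1, 28.4, 89.2 and 92.2 in control replicates 1 to 4. The hypodermal FLP values lay inside the control range, with a log2 fold change of −0.24 (SE 0.38).

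vab-1, the ephrin receptor, had 35.5, 31.4 and 33.5 CPM in hypodermal FLP libraries, against 39.2, 16.1, 53.7 and 46.0 in controls. cam-1, a Ror receptor that takes part in cell migration, had 23.2, 25.8 and 34.8 in hypodermal FLP libraries, against 22.3, 19.8, 21.9 and 27.2 in controls. Both overlapped between the strains, with log2 fold changes of −0.22 (SE 0.39) and 0.29 (SE 0.31). Of the other listed receptors, ver-4 had at most 5 reads in a library and trk-1 at most 27. old-1, old-2 and ver-1 had no counted 3′ UTR, and ver-2 had no gene of that name in the annotation used. In labelling, 9 of these receptors were tested, edgeR called 0, with 0 at an unadjusted p under 0.05. Their log2 odds ratios had a median of 1.24, against 0.54 for all tested genes, but ranged from −2.64 to 2.42. Of the 9, 6 lay above 0, against 69.9% of all tested genes. Of these receptors the authors' deposited table holds 0.

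**Figure D4:**
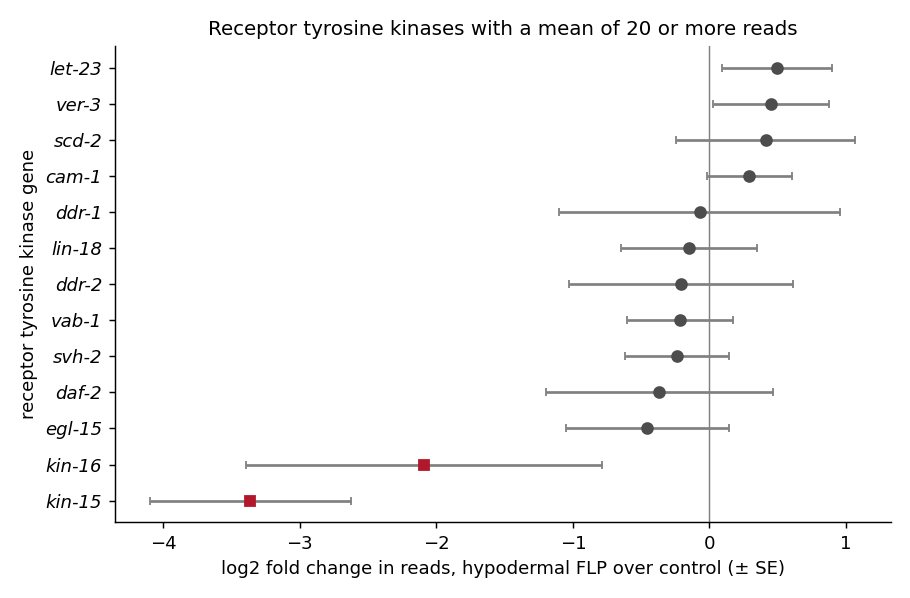
Log2 fold change in reads, hypodermal FLP over control, with standard errors, for kin-15 and kin-16 (squares, chosen with these values known) and 11 other receptor tyrosine kinases (circles). The circles lie between −0.46 and 0.50, the squares at −3.36 and −2.09.

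Genes of the chain below receptor tyrosine kinases were also examined. Of 13 listed, 11 were tested, and edgeR called 0 in reads and 0 in labelling, with 0 at an unadjusted p under 0.05 in either and 0 by DESeq2 in reads. The median log2 fold change in reads was 0.12. let-60, the worm's Ras, had 0.01 (SE 0.38), the kinase gene mek-2 −0.13 (SE 0.36) and mpk-1, the MAP kinase at the end of the chain, 0.11 (SE 0.33). Of 8 cytoplasmic tyrosine kinases tested, edgeR called 0 in reads and labelling, with 0 at an unadjusted p under 0.05 and 0 by DESeq2. Their median was 0.25, with sid-3 at 0.36 (SE 0.33), src-1 at 0.28 (SE 0.42) and ark-1, a negative regulator of let-23 signalling, at −0.66 (SE 0.35).

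Cell fusion adds epidermal cells to hyp7, and its fusogen genes were listed for that reason. eff-1, which fuses epidermal cells, had 17.0, 19.7 and 22.6 CPM in hypodermal FLP libraries, against 15.7, 2.33, 11.3 and 21.1 in controls. aff-1, which fuses others, had 4.90, 5.09 and 9.74 in hypodermal FLP libraries, against 5.38, 2.33, 9.32 and 9.07 in controls. Neither passed edgeR's test or DESeq2's in reads, and 0 had an unadjusted p under 0.05. The log2 fold changes were 0.63 (SE 0.56) and 0.00 (SE 0.59). Both fusogen genes were lowest in control replicate 2, where kin-15 and kin-16 were the second highest of the controls. That library was the shallowest, with 10 reads for each fusogen gene, 31 for kin-15 and 29 for kin-16. The opposite order there is therefore not read as a result.

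Moulting and stage genes were listed as a gauge of larval stage. All 16 listed were tested, and edgeR called 0 in reads and 0 in labelling, and DESeq2 0 in reads. Their median log2 fold change in reads was 0.26, with 12 above 0 and 4 below. Over all tested genes the median was −0.01, with 49.3% above 0. Whether the list differs as a set was not tested. At an unadjusted p under 0.05 there was 1 higher in reads, mlt-11, which encodes a putative protease inhibitor needed for moulting (log2 fold change 1.22, SE 0.43). In labelling there was 1 higher, the collagen gene dpy-3. Over all tested genes, 0.73% were higher at that level in reads and 2.54% in labelling. A single gene of this list is therefore not read as a result. The most-read members, the collagen genes dpy-13, sqt-3 and col-19, had log2 fold changes of 0.28 (SE 0.27), 0.51 (SE 0.28) and −0.69 (SE 0.41). col-19, which marks the adult, had 268, 575 and 396 CPM in hypodermal FLP libraries, against 561, 1199, 501 and 399 in controls. The transcription factor gene nhr-23, which drives the moulting cycle and was chosen here after its values were seen, had 37.3, 45.9 and 39.9 in hypodermal FLP libraries, against 38.9, 26.6, 128 and 54.5 in controls. Its highest library, control replicate 3, was also the highest for kin-15 and kin-16. No other gene of this list was highest in that library. Lowest there were mlt-11, nas-37, nhr-25, rol-6, dpy-3 and dpy-13, at 5.45, 15.3, 0.121, 170, 4.24 and 2074 CPM. dpy-7 was lowest there too, but only just below control replicates 1 and 2. The remaining genes of the list were lowest in other libraries. The part of developmental timing in the reads of the pair was not tested.

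Markers of the hypodermis were present in all libraries. The summed level of 9 hypodermal markers was 4249 to 5894 CPM in hypodermal FLP libraries and 3545 to 5318 in controls, with 5 of 9 higher on average with FLP, 0 called by edgeR and none at 0. For 6 seam cell markers the sums were 141 to 231 in hypodermal FLP libraries and 128 to 256 in controls, with ceh-16 and nhr-73 at 0 in at least 1 library. Marker sums of intestine, muscle, pharynx, neurons and sperm overlapped between the strains. Those of 4 germline markers did not, with 770 to 778 in hypodermal FLP libraries and 789 to 1058 in controls. Of these 4 markers 1 was higher on average with FLP, and edgeR called 0. Of all tested genes, 2.25% lay below every control in every hypodermal FLP library, but that is a share of single genes and not of sums. The part of the germline in the reads of the pair was not tested.

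None of the genes tested around the pair had a log2 fold change as low as kin-16 (−2.09, SE 1.30). As the pair was chosen with its values known, this too is a description. Of the 10 tested genes on each side, edgeR called 0 of 20 and DESeq2 0 in reads, with 1 higher, M176.10, and 0 lower at an unadjusted p under 0.05. M176.10 passed the filter on reads only through the group in which it was high, with a mean of 51 reads in hypodermal FLP libraries and 6.75 in controls, so that count is not read as a result. The median log2 fold change of the neighbours was −0.20, with 7 above 0 and 13 below, and the lowest was −1.38 (SE 0.67). In labelling 13 were tested, edgeR called 0, and 1 was higher at an unadjusted p under 0.05, M176.4, of no role given here. Of all genes tested in labelling, 2.54% were higher at that level. The authors' deposited table lists 0 of these 20 genes. The nearest tested gene is chil-13, named as chitinase-like, which lies 0.514 kb beyond the pair on the upstream side and is read from the same strand.

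chil-13 had 3.83, 3.48 and 4.14 CPM in hypodermal FLP replicates 1 to 3, against 6.87, 4.43, 7.02 and 4.68 in control replicates 1 to 4. Every hypodermal FLP library lay below every control here too, as in 2.25% of all tested genes, but the log2 fold change was −0.60 (SE 0.55) and edgeR's unadjusted p was 0.3. The next genes on that side, chil-23 and T19H5.4, had −1.22 (SE 1.40) and −0.24 (SE 0.33). On the downstream side M176.5, 3.64 kb away, had 0.26 (SE 0.40) and M176.11 0.42 (SE 0.47). M176.10 had 1.12, 1.16 and 2.83 CPM in hypodermal FLP libraries, against 0.471 in control replicate 1 and 0 in the other controls. It was thus higher in each hypodermal FLP library, the opposite side from kin-15, as in 326 tested genes (2.62%), and is given as a description.

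**Figure D5:**
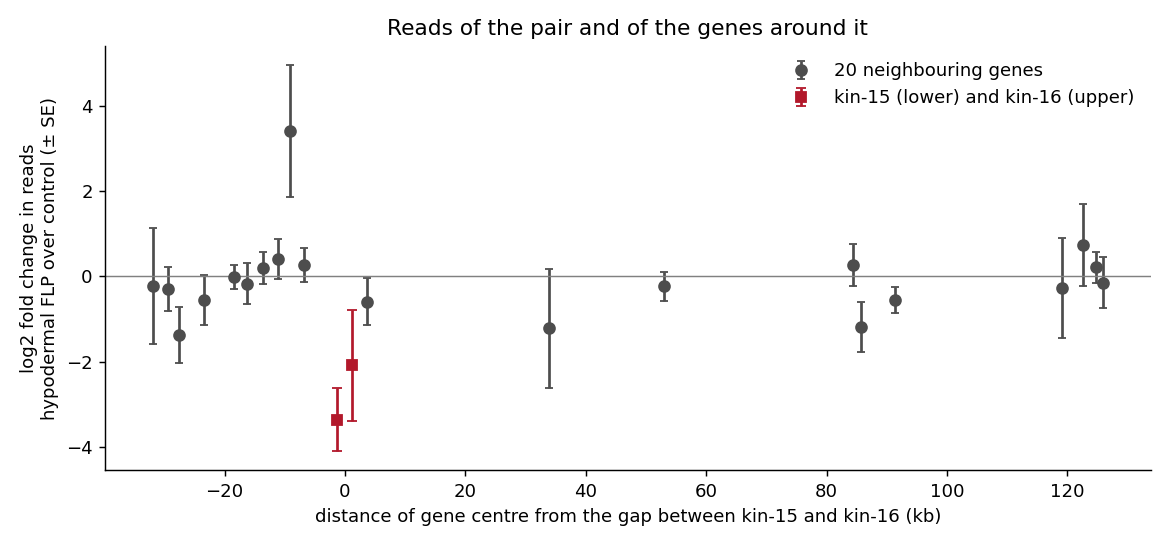
Log2 fold change in reads, hypodermal FLP over control, with standard errors, of kin-15 and kin-16 (squares) and the 10 tested genes on each side (circles) against the distance of each gene's centre from the gap between the pair. The circle above 3 is M176.10 at 3.40, and the other neighbours lie between −1.38 and 0.74. The pair was chosen with its values known.

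The genes whose levels across the 7 libraries were most like kin-15 were ife-2, nlp-27, dct-7, F14D7.2 and F38H4.6, with Pearson correlations of 0.98, 0.97, 0.97, 0.96 and 0.96. These are given as a description, since all genes share the same libraries and the difference between the strains enters the value. With group means removed the correlations were 0.98, 0.85, 0.78, 0.86 and 0.79. ife-2 encodes a cap-binding translation factor and had 29.3, 27.8 and 33.2 CPM in hypodermal FLP libraries, against 45.8, 48.3, 60.6 and 36.0 in controls. Its log2 fold change was −0.66 (SE 0.30). nlp-27 belongs to the neuropeptide-like genes, some of which encode antimicrobial peptides of the epidermis, and was 1 of the 2 genes that edgeR called lower (log2 fold change −3.05, SE 0.38, adjusted p = 0.0359). Over 13 alternative edgeR fits its log2 fold change was between −3.21 and −2.52, and its adjusted p between 0.0062 and 0.789, under 0.05 in 3 of them. It had 10.6, 12.5 and 12.9 CPM in hypodermal FLP replicates 1 to 3, against 68.2, 108, 150 and 70.1 in control replicates 1 to 4. Control replicate 3 was its highest library, as for kin-15 and kin-16, but likeness to kin-15 was the rule by which nlp-27 was picked.

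For kin-16 the most alike genes were linc-41, W01B11.6, C07B5.4, snpc-1.2 and the gene with the identifier WBGene00023263, with correlations of 1.00, 0.97, 0.96, 0.95 and 0.95. With group means removed they were 0.99, 0.97, 0.94, 0.94 and 0.91. linc-41, a long intergenic noncoding RNA on chromosome IV, had 1.02, 0.705 and 4.24 CPM in hypodermal FLP libraries, against 2.84, 5.60, 8.72 and 2.78 in controls. Like kin-16, linc-41 was highest in control replicate 3 and had hypodermal FLP replicate 3 above control replicates 1 and 4. These genes were picked for their likeness to kin-16, so a shared order of libraries follows from the choice. Of the genes alike to kin-16, 0 were called by edgeR and 1, W01B11.6, had an unadjusted p under 0.05. No gene was among the 5 most alike for both members.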

How the data were processed

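The authors deposited, per the file headers, counts made with slamdunk 0.4.3 for each library over 47039 3′ UTR entries: reads, reads with T>C, covered T positions and converted T positions. The deposited table of 198 genes gives the authors' adjusted p-value from a test the sources do not name, and its 21 columns of values per library were not used. The headers name an annotation of WBcel235, whose counted kin-15 and kin-16 3′ UTRs have the same coordinates in Ensembl's WBcel235 annotation, and the submitters' processing notes name build ce10 and DESeq2 without a role. Trimming and the T>C threshold per read: not given in the sources used here.

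Entries were joined to genes by transcript name (42202) or sequence name (4816), and the 21 without a gene, with 0.00444% of reads, were left out. Where entries of a gene overlapped, the most-read one was counted. kin-15 and kin-16 both passed the filter on reads (a mean of 20 or more per library), also in the mean of the hypodermal FLP libraries alone (24.3 and 31.7 reads). Reads were scaled by TMM and tested in R 4.3.3 with the quasi-likelihood F-test of edgeR 4.0.16. The alternative, DESeq2 1.42.0, left 63 genes with no adjusted p. Labelling was tested by edgeR on reads with and without T>C, with a term per library, over genes that also had 10 or more reads with T>C. P-values are two-sided with Benjamini-Hochberg adjustment over all genes tested and a threshold of 0.05. Each standard error is the size of the log2 value over the square root of its F. CPM values were computed with the TMM library sizes. Wilson and Poisson intervals are at 95%. Both edgeR fits were tested on simulated data with known changes, where larger changes were recovered more often than smaller ones. The simulated spread between libraries was set alike for all genes, so this gives no recovery rate for kin-15 or kin-16. Python 3.11.15, pandas 2.3.3, NumPy 2.4.6, SciPy 1.17.1 and matplotlib 3.10.9 were also used.

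The members and all lists were chosen with earlier results of these data known. Named were members past the threshold and otherwise the 3 most-read of each list, the 3 nearest tested genes on each side, and the 5 genes with the highest correlation to each member.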

Additional observations from a re-analysis of the deposited data

Results flagged for a closer look

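In the controls, 37 sets of 4 values were checked for a library far from the others, of which chance picks about 1 in 20, and 2 were found. The share of kin-15 reads with T>C was 0.531% in control replicate 1 and 0% in the other controls, which rests on 2 reads. M176.10, downstream of the pair, had 0.471 CPM in control replicate 1 and 0 in the other controls. With all other controls at 0, any value above 0 would have been flagged, so neither is read as a result.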

How the results depend on the processing

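The log2 fold change of kin-15 stayed negative under each alternative run, between −3.62 and −2.93 with single libraries left out, and reached −2.71 with control replicates 2 and 3 both left out, an alternative chosen after seeing the data. That of kin-16 stayed negative too, but ranged from −4.78 to −1.47 with single libraries left out and was −0.71 with those controls both left out. The labels do not say whether libraries of the same replicate number belong together. Same-numbered deviations from group means correlated at 0.36 for replicate 1, 0.095 for replicate 2 and −0.08 for replicate 3. Both replicate 1 libraries also lack a flow cell name in the header, and a batch shared by them was not tested. The replicate numbers are those of the sample titles, and the file header of hypodermal FLP replicate 1 carries none. With the replicate number as a block, which leaves out control replicate 4, kin-15 had −3.56 and kin-16 −3.48, against −3.62 and −2.39 in the same libraries without the block. edgeR called 0 genes lower in reads in both of these fits. The T>C difference of kin-15 was 0.680 percentage points and ran from −0.133 to 1.09 with single libraries left out, 0.636 with the block and without control replicate 4 alike, and that of kin-16 was 0 throughout. Centring on the pooled odds could not be run for these shares because of their zeros. Over all genes, 2 were called lower in reads, but 0 to 1 with single libraries left out, 0 with total reads as library size, 0 in the flow cell libraries and 15 by DESeq2. The 0 called higher became 1 without a filter on low counts and 9 by DESeq2. In labelling, 0 called higher became 0 to 21 with single libraries left out, the 21 without control replicate 2, and 36 with control replicates 2 and 3 both left out, and 0 called lower became 0 to 1. The cause of these changes was not tested. No neighbour or other receptor tyrosine kinase was called with any single library left out. With 3 and 0 labelled reads, no test of labelling could be had for kin-15 or kin-16.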
